A study of Mus musculus with 51 samples.

Results

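Fetal mouse kidneys taken 4 h apart on embryonic day 19, at CT28 and at CT32, differed in few single genes. Of 14542 genes tested, 14 rose and 3 fell at CT32, which is 0.117% of the genes tested (0.0963% higher and 0.0206% lower). This count was not stable: it ran from 1 to 47 when 1 of the 8 libraries was left out, and only Kdm3a passed each time. The genes that rose include Ifi27l2a, Sp100, Ifih1 and H2-K1, which are known to be induced by interferon, and Ankrd37, Kdm3a, Pfkfb3 and Pgk1, which are known targets of the hypoxia-inducible factors. Insig1, a brake on sterol synthesis, and Has2 and Hmmr, a synthase and a receptor of hyaluronan, fell. The comparison uses 8 of the 51 libraries of the study, the 4 of each time point by the sample labels.

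The study followed the kidney of C57BL/6 mouse fetuses every 4 h over 13 time points, under a title that concerns the circadian clock and developmental time. CT counts the hours from embryonic day 18, so CT28 is embryonic day 19 plus 4 h and CT32 embryonic day 19 plus 8 h. Both groups are labelled wild type, no treatment is named for either, and neither the sex of the fetuses nor pooling is given. Sample numbering separates a later set of 24 libraries, CT28 to CT48, called the second library series here, of which these are the earliest time points. Replicates are called biological in the labels, but no dam or litter is named for any of them. A p-value here measures only how much these samples spread, which may be partly technical or shared within a litter. In whole kidney, fewer cells of a type and less RNA per cell cannot be told apart.

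Interferons are secreted signals that cells answer by switching on a set of antiviral and antigen-presenting genes. Hypoxia-inducible factors build up when oxygen falls and raise the genes of glycolysis, glucose uptake and erythropoietin, the last of which is made by interstitial cells of the kidney. Sterol synthesis is held in check by INSIG1, a protein of the endoplasmic reticulum that retains the SREBP factors when sterols are plentiful.

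Kidney markers were present in all 8 libraries. The summed value of 15 nephron progenitor genes (such as Six2 and Cited1) was 38654 to 41602 at CT28 and 37430 to 40396 at CT32, and that of 30 proximal tubule genes was 175854 to 215819 and 214912 to 268300. CT28 replicate 3 stood apart in genes of the adrenal gland, which lies against the kidney. Cyp11b1, the last enzyme of glucocorticoid synthesis, was 148 there, 1, 3 and 13 in the other CT28 libraries and 0 in all 4 CT32 libraries. Cyp21a1 was 128 and Hsd3b1 109 in the same library, against at most 3 and 7 in the other libraries. The sum over 11 adrenal genes was 752 there and 180 to 262 in the other 7 libraries. The same library had the highest CT28 sums of the interferon list (35030, against 21769 to 28916) and of the hypoxia and glycolysis list (266064, against 209421 to 230168). This was not particular to those lists. It was also the highest at CT28 for proximal tubule (215819), podocyte (103266), heat shock and chaperone (298971) and fatty acid oxidation (69817), among others. For mitosis it was the lowest (104873). Whether these values belong together was not tested. Without this library all 17 genes still passed, and the total of called genes was 44.

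Genome windows of 250 bases before the RefSeq start of transcription (build GRCm38.p6) were found for 14 of the 17 genes. They are shown for the 4 hypoxia-related genes because those rose together at CT32. Capitals mark the core of the hypoxia response element, acgtg or gcgtg, on either strand. The Ankrd37 window (chr8:45999851-46000100, minus strand, with 4 cores) lies inside the annotated gene. It is shown without the bases that overlap an exon, so 233 bases (chr8:45999868-46000100) with 3 of the 4 cores are printed. The Pgk1 window (chrX:106186850-106187099, plus strand) ends 1 base before the annotated gene. For Kdm3a (chr6:71632928-71632956, minus strand) and Pfkfb3 (chr2:11553973-11554001, minus strand) the match lies in an annotated first exon, and it is shown with 12 bases on each side.
Ankrd37: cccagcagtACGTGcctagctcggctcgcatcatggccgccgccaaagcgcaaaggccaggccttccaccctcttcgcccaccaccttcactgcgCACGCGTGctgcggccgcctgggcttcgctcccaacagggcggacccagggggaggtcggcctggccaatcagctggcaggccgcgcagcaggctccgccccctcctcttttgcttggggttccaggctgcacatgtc
Pgk1: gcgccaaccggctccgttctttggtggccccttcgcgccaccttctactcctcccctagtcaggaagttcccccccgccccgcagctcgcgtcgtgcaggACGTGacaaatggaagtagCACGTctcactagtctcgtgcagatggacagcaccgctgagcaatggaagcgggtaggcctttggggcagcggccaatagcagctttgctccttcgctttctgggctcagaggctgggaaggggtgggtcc
Kdm3a: ccgggaggctgtGCGTGtcttgtgagaga
Pfkfb3: ctccgcgccgtgACGTGccaagctgtgac

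Of the 14 windows, 6 held the core (those of Ankrd37, Insig1, Kdm3a, Pfkfb3, Pgk1 and Tfrc), and so did 38.6% of 32851 promoters of the same length, so a match is common. The E-box CACGTG, which holds the core within it, was in the window of Insig1 and in 6.02% of all promoters. None of the 14 held the core of the interferon-stimulated response element (2.98% of promoters), the sterol regulatory element (0.192%), the cAMP element TGACGTCA (1.55%), the heat shock element (0.466%) or the D-box TTATGTAA or TTACGTAA (0.931%). Each was searched on both strands. A match is a description of the letters and not of a bound site.

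The values below are the deposited ones, which were normalised and rounded by the authors. Differences are on the log2(value + 1) scale, CT32 minus CT28, ± the standard error (SE) of the fit, and adjusted p-values are from limma with Benjamini-Hochberg adjustment. A gene rose or fell where its adjusted p was under 0.05. Over all genes tested the median difference was -0.0054, 90% of differences lay between -0.36 and 0.35, and the median SE was 0.0949. At an unadjusted p under 0.05 there were 1372 genes, or 9.43%.

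**Figure D1:**
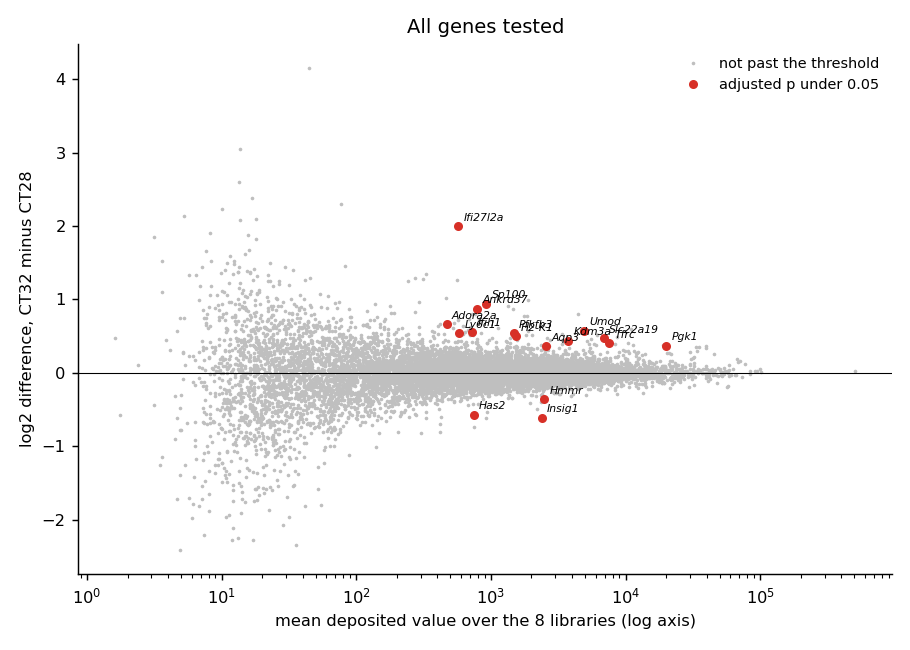
Each point is 1 of 14542 genes, with the mean deposited value over the 8 libraries on the x axis (log axis) and the log2 difference, CT32 minus CT28, on the y axis. The 17 genes past the threshold are in red and named. They lie from -0.61 (Insig1) to 2.00 (Ifi27l2a), and many genes of low value with larger differences did not pass.

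Among the hypoxia-related genes, Kdm3a, a demethylase of histone H3, gave the lowest adjusted p of the comparison. Its values were 3383, 3208, 3161 and 2929 at CT28 and 4603, 4408, 4175 and 3999 at CT32, so every CT32 library lay above every CT28 library. The difference was 0.44 ± 0.0624 (limma, adjusted p = 0.00134). Kdm3a was the only one of the 17 that passed whichever of the 8 libraries was left out, with an adjusted p of at most 0.0224.

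Ankrd37, a small ankyrin-repeat protein, read 594, 555, 636 and 425 at CT28 and 879, 1249, 1149 and 803 at CT32. The groups did not overlap, and Ankrd37 rose by 0.88 ± 0.17 (limma, adjusted p = 0.0242). Pfkfb3 makes fructose 2,6-bisphosphate, the activator of the phosphofructokinase step of glycolysis. It was nearly flat over CT28, at 1136, 1193, 1206 and 1203, and wider at CT32, at 1682, 2229, 1803 and 1316, with replicate 4 nearest to CT28. The rise was 0.54 ± 0.10 (limma, adjusted p = 0.0219). Pgk1, the phosphoglycerate kinase, was 15776, 17050, 20226 and 16963 at CT28 and 22284, 26558, 23105 and 18868 at CT32. The groups overlapped through CT28 replicate 3 and CT32 replicate 4, and Pgk1 is the only one of the 17 genes with an overlap (0.37 ± 0.0772, limma, adjusted p = 0.0388).

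Of the 24 genes of the hypoxia and glycolysis list, 3 rose (Kdm3a, Ankrd37 and Pgk1) and none fell. All 24 differences were above 0, as were 48.1% of all genes tested, and the list's median was 0.369. Every CT32 library was above every CT28 library in 3 of the 24, and in 2.7% of all genes tested. Erythropoietin, Epo, was 1, 1, 6 and 3 at CT28 and 8 to 145 at CT32 (4.15 ± 0.93, limma, adjusted p = 0.0686). CT32 replicates 1, 2 and 3 were at 61 or more, and replicate 4, at 8, was close to CT28. Ndrg1, a stress-response protein of the cytoplasm, was 8024, 7539, 10124 and 8669 at CT28 and 16222, 18242, 9789 and 9686 at CT32, which is high in 2 of 4 libraries (adjusted p = 0.348, limma). Hk1, the housekeeping hexokinase, had the lowest difference of the list, 0.06 ± 0.0681. Eno1 was listed at 21 to 24 at CT28 and at 23, 88, 24 and 63 at CT32. Such low values, and the many near-identical pseudogenes of glycolytic genes, make single values of this group uncertain.

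CT32 replicate 4 was the lowest of its group in Ankrd37, Pfkfb3, Pgk1, Kdm3a and Epo. Without it 8 of the 24 genes passed (Vegfa, Pgk1, Tpi1, Bnip3, Ankrd37, Pdk1, Epo and Kdm3a) and the median was 0.438. Without CT28 replicate 3, 7 passed (Pgk1, Aldoa, Tpi1, Ankrd37, Epo, P4ha1 and Kdm3a), and without any 1 of the other 6 libraries Kdm3a alone did.

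**Figure D2:**
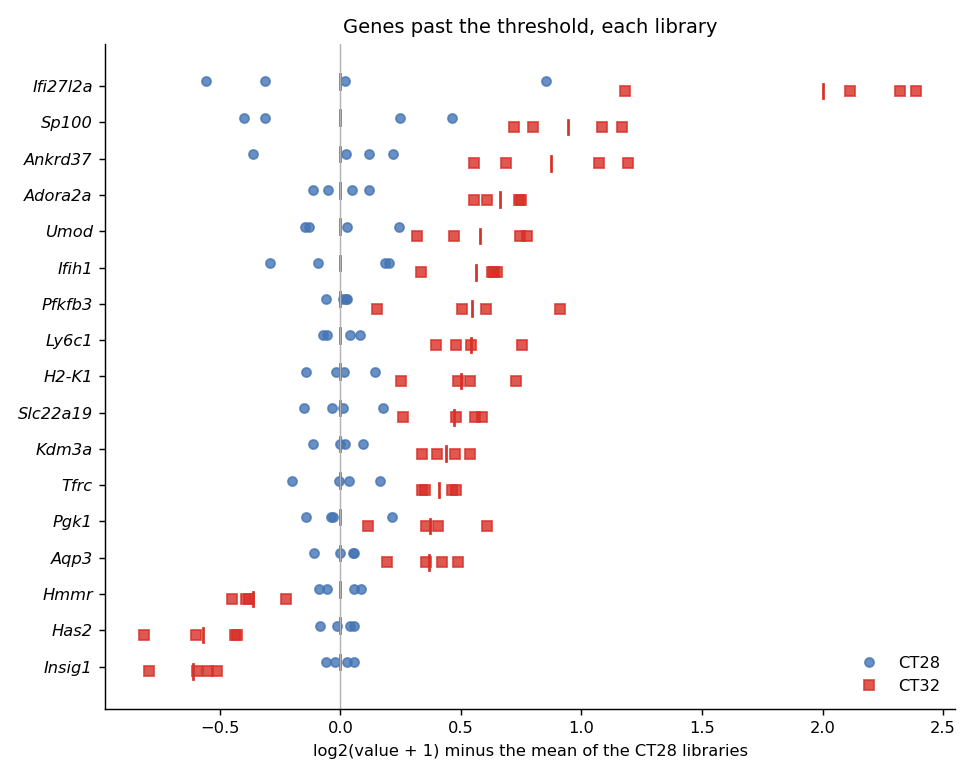
Each row is 1 of the 17 genes past the threshold, with log2(value + 1) minus the mean of the 4 CT28 libraries on the x axis. Circles are CT28 libraries, squares CT32 libraries and ticks the group means. Squares lie clear of circles in every row except that of Pgk1. This follows in part from choosing the rows by p in the same libraries. Over all genes tested, every CT32 library lay above every CT28 library in 2.7% and below in 3.09%.

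Ifi27l2a, a small membrane protein induced by interferon, had the largest difference of the 17 genes. Its values were 146, 218, 390 and 173 at CT28 and 935, 1132, 1079 and 490 at CT32. CT28 replicate 3 and CT32 replicate 4 came nearest to each other and still did not overlap (2.00 ± 0.33, limma, adjusted p = 0.0219). Sp100, a component of the nuclear bodies that also hold PML, was 471, 737, 858 and 501 at CT28 and 1321, 1024, 1396 and 1082 at CT32. CT28 was spread over replicates 1 and 4 below and replicates 2 and 3 above, and Sp100 rose by 0.94 ± 0.18 (limma, adjusted p = 0.0242).

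Ifih1 encodes MDA5, a sensor of double-stranded RNA in the cytosol. It was 473, 657, 665 and 542 at CT28 and 909, 730, 896 and 900 at CT32, with replicate 2 low in the later group (0.56 ± 0.10, limma, adjusted p = 0.0219). H2-K1, a class I molecule that presents antigen, was 1139, 1392, 1272 and 1243 at CT28 and 1827, 2083, 1764 and 1498 at CT32. The groups lay apart, and the rise was 0.50 ± 0.092 (limma, adjusted p = 0.0219). Ly6c1, a surface protein of endothelial cells and leukocytes, rose from 451, 496, 482 and 446 to 683, 791, 654 and 616, again without overlap (0.54 ± 0.11, limma, adjusted p = 0.0352). Ifi27l2a, H2-K1 and Ly6c1 have close paralogues, and no source used here says how reads shared with them were counted.

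Of the 23 tested genes of the interferon-stimulated list only Ifi27l2a passed the threshold and none fell. Its median was 0.569, the highest of the 31 lists, all 23 differences were above 0 (48.1% of all genes), and 10 had every CT32 library above every CT28 library (2.7% of all genes). Gbp6, a guanylate-binding protein, was 174, 151, 393 and 93 and then 400, 483, 501 and 425 (1.35 ± 0.35, limma, adjusted p = 0.167). CT28 replicate 3 was the highest of its group. Isg15, a ubiquitin-like modifier, was 650, 1115, 1440 and 594 and then 1501, 1255, 2034 and 2061, with an overlap (0.92 ± 0.45, limma, adjusted p = 0.546). Rsad2, an antiviral enzyme, had the lowest difference, 0.0837 ± 0.097. The summed values were 21769 to 35030 at CT28 and 36455 to 42671 at CT32, so the sums did not overlap. Without CT28 replicate 3, 5 of the 23 rose (Ifit3, Ifi27l2a, Irf9, Oasl2 and Gbp6) and the median was 0.697. Without CT32 replicate 4 Ifi27l2a alone passed, with a median of 0.541. Of 15 markers of macrophages, cells that respond to interferon, none passed, and their sums were 6775 to 7102 at CT28 and 7115 to 7859 at CT32. Their part in the interferon values was not tested.

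**Figure D3:**
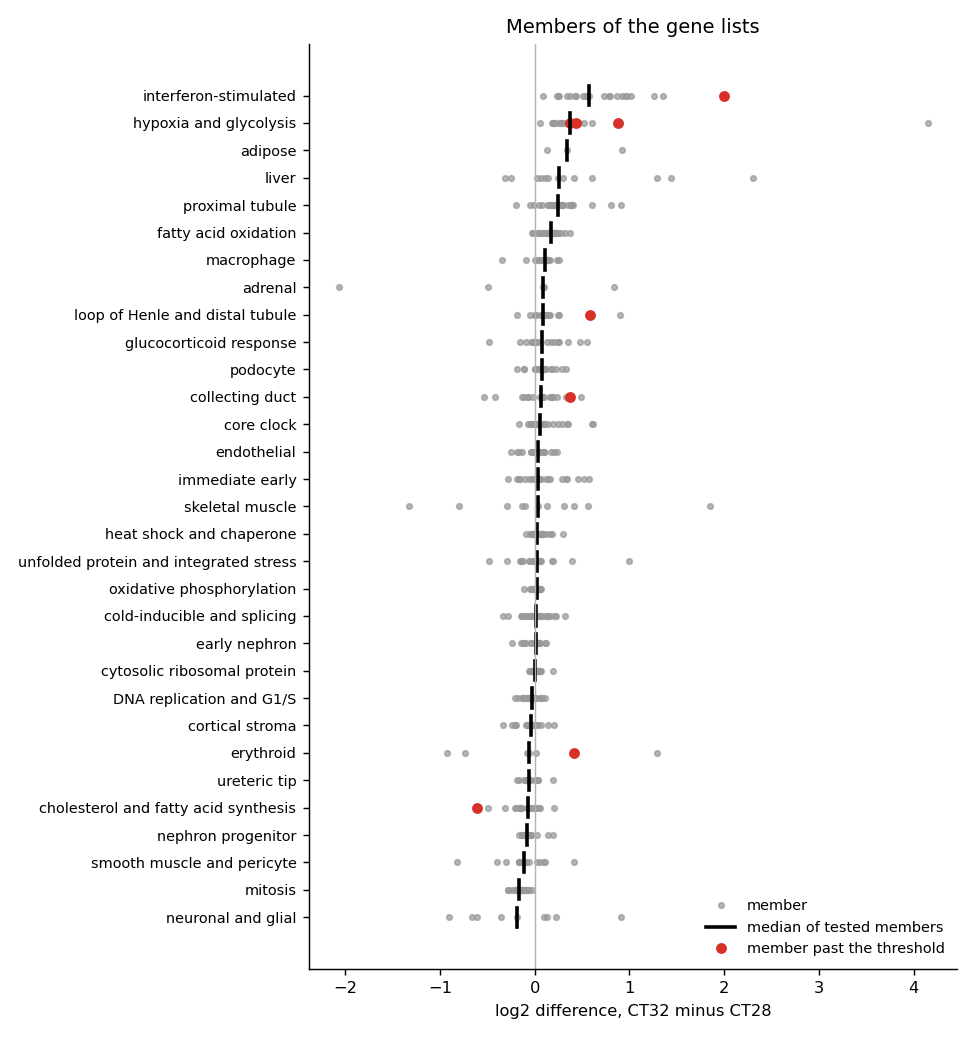
Each row is 1 of 31 gene lists, with 1 point for each tested member at its log2 difference, CT32 minus CT28, on the x axis. Black ticks are medians and red points members past the threshold. The highest median is 0.569 (interferon-stimulated), and 6 lists hold a red point.

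The sterol branch held the largest fall. Insig1 was 2928, 2983, 2826 and 2757 at CT28 and 1904, 1658, 2017 and 1963 at CT32, and the groups were far apart (-0.61 ± 0.10, limma, adjusted p = 0.0219). It was the only one of 23 tested genes of cholesterol and fatty acid synthesis to pass, and the list's median was -0.0707, with 18 of 23 below 0 (-0.112 without CT28 replicate 1). At CT8 against CT4, the same hours a day earlier, 2 of the 23 were above 0 and the median was -0.0915. Hmgcs1, an early enzyme of cholesterol synthesis, differed by -0.0353 ± 0.0687 and Scd1, a fatty acid desaturase, by 0.20 ± 0.13.

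Has2, which makes hyaluronan at the cell surface, was 910, 920, 836 and 877 at CT28 and 584, 503, 653 and 658 at CT32 (-0.57 ± 0.11, limma, adjusted p = 0.0278). Hmmr, a hyaluronan-binding protein that also serves at the mitotic spindle, was 2945, 2880, 2671 and 2609 and then 2134, 2031, 2372 and 2116 (-0.36 ± 0.0752, limma, adjusted p = 0.0388). For both genes the groups did not overlap. No member of the 24-gene mitosis list passed, but all 24 differences were below 0 (median -0.165) and 7 had every CT32 library below every CT28 library, against 3.09% of all genes tested. This direction was not particular to day 19: at CT8 against CT4, the same hours a day earlier, 0 of the 24 were above 0 (median -0.113). Ccnb2, a cyclin of mitotic entry, was 3482, 3598, 3520 and 3366 and then 2840, 2471, 2992 and 3225 (-0.28 ± 0.0796, limma, adjusted p = 0.18). Top2a had the smallest difference, -0.0313 ± 0.0714. For 24 genes of DNA replication the median was -0.0301, and none passed.

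Of the tubule genes, Umod, the secreted uromodulin of the thick ascending limb, was 3538, 3577, 4635 and 3990 at CT28 and 6692, 6554, 4875 and 5429 at CT32. CT28 replicate 3 and CT32 replicate 3 were the nearest pair, without overlap (0.58 ± 0.11, limma, adjusted p = 0.0388). Umod was the only one of 19 tested loop and distal tubule genes to pass (median 0.0858), and Slc12a1, the sodium transporter of the same cells, differed by 0.16 ± 0.0833. Aqp3, a basolateral water channel of the collecting duct, was 2318, 2076, 2236 and 2329 and then 2996, 3142, 2562 and 2866 (0.37 ± 0.0724, limma, adjusted p = 0.0254). It was the only one of 21 collecting duct genes to pass (median 0.0694). Aqp2, its apical partner, was 7035, 7100, 7081 and 7445 and then 9536, 10882, 9423 and 10558, also without overlap, and did not pass (0.49 ± 0.17, limma, adjusted p = 0.333).

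Slc22a19, an organic anion transporter, was 5173, 5594, 6484 and 5776 at CT28 and 8442, 8617, 8012 and 6873 at CT32. Every CT32 library was above CT28 (0.47 ± 0.0899, limma, adjusted p = 0.0242). None of the 30 proximal tubule genes passed, while 27 differences were above 0 and the median was 0.244. At CT8 against CT4, a day earlier, 29 of the 30 were above 0, 4 rose and the median was 0.198. Agt, angiotensinogen, was 92 to 146 at CT28 and 305, 315, 153 and 163 at CT32, high in replicates 1 and 2 (0.91 ± 0.21, limma, adjusted p = 0.0802). Pck1, the gluconeogenic carboxykinase, was 2882, 2666, 3568 and 3608 and then 5804, 7293, 4717 and 4654 (0.81 ± 0.25, limma, adjusted p = 0.258). Without CT32 replicate 4, Slc5a12, Agt and Napsa passed. Fatty acid oxidation, the main fuel pathway of this segment, had 22 of 24 differences above 0, a median of 0.175 and no call. A day earlier 21 of the 24 were above 0, with a median of 0.0733.

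Adora2a, an adenosine receptor, was 374, 335, 349 and 393 at CT28 and 532, 605, 609 and 552 at CT32, both groups narrow (0.66 ± 0.13, limma, adjusted p = 0.0223). Tfrc, the transferrin receptor by which cells take up iron, was 5607, 6409, 7222 and 6606 and then 8128, 8966, 8876 and 8205 (0.41 ± 0.0787, limma, adjusted p = 0.0242). Tfrc is also in the erythroid list, where 3 of 7 differences were above 0 and 4 below. Alas2, the haem enzyme of red cells, was 932, 969, 818 and 966 and then 628, 416, 447 and 778. Klf1, the red cell transcription factor, was 17, 24, 39 and 24 and then 93, 53, 56 and 55 (1.29 ± 0.31, limma, adjusted p = 0.104). Neither passed.

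No core clock gene passed among 22, with a median of 0.0583. Bhlhe40, a repressor that is also known to answer hypoxia, was 1656, 1561, 1632 and 1656 at CT28 and 2124, 2780, 1758 and 1706 at CT32 (0.34 ± 0.11, limma, adjusted p = 0.258). The other clock genes overlapped between the groups. Per2 differed by -0.00434 ± 0.24, Arntl by 0.0931 ± 0.12 and Nr1d1 by -0.17 ± 0.12. The temperature-responsive lists had no call either. The median was 0.0261 over 23 heat shock and chaperone genes and 0.0103 over 23 cold-inducible and splicing genes, where Cirbp, the cold-inducible RNA-binding protein, had the lowest difference (-0.33, limma, adjusted p = 0.185).

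Of the 31 lists, 25 held no call. Medians of the developmental lists were near 0, at -0.0862 for 15 nephron progenitor genes, 0.00973 for 16 early nephron genes, -0.0651 for 13 ureteric tip genes, -0.0399 for 18 cortical stroma genes and 0.0755 for 19 podocyte genes. For ribosomal proteins the median was 0.0073 and for oxidative phosphorylation 0.0245, each over 24 genes. It was 0.034 over 24 immediate early genes, 0.0256 over 24 genes of the unfolded protein response, 0.0793 over 16 glucocorticoid response genes, 0.0401 over 20 endothelial genes, 0.104 over the 15 macrophage genes and -0.109 over 15 smooth muscle and pericyte genes. Genes of other tissues had medians of 0.252 (13 liver), 0.0861 (5 adrenal), 0.341 (3 adipose), 0.0303 (11 skeletal muscle), -0.0614 (7 erythroid) and -0.191 (9 neuronal and glial). These moved when single libraries were left out. Those of liver and adipose stayed above 0, and the others changed sign. The liver median was 0.0862 without CT28 replicate 2, the adrenal -0.124 and the skeletal muscle -0.197 without CT28 replicate 3, and the adipose 0.163 without CT32 replicate 2. Without CT28 replicate 1 the erythroid median was 0.0117 and the neuronal and glial 0.155. Liver genes varied within the groups, with Alb at 211, 38, 99 and 233 at CT28 and 151, 924, 121 and 407 at CT32.

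Within the second library series, 10 of the 14 genes that rose had their highest mean at CT32 among the 6 time points (Ifi27l2a, Sp100, Ankrd37, Adora2a, Ifih1, Pfkfb3, Slc22a19, Kdm3a, Tfrc and Pgk1). Umod, Ly6c1, H2-K1 and Aqp3 had a higher mean later. All 3 that fell had their highest mean at CT28. These ranks follow in part from choosing the genes by CT32 against CT28, and the share among all genes tested was not computed. Ankrd37 was 1020 ± 213 (SD, n = 4) at CT32 and 167 ± 12.5 at CT36, then 176 to 205 in the means to CT48, so its CT28 mean of 552 ± 91.2 was also above the later ones. Kdm3a went from 4296 ± 264 at CT32 to 3083 ± 36.7 at CT36. Hmmr went from 2163 ± 146 to 1251 ± 52.1. From CT32 to CT36, 34.5% of all genes tested passed (5022, limma, adjusted p under 0.05). That step shares the CT32 libraries with the comparison described here, and it coincides with the place where the 8 libraries part from the other 16 on the first principal component (-45.3 to -25.1, against -1.81 to 32.4). What separates them was not tested.

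**Figure D4:**
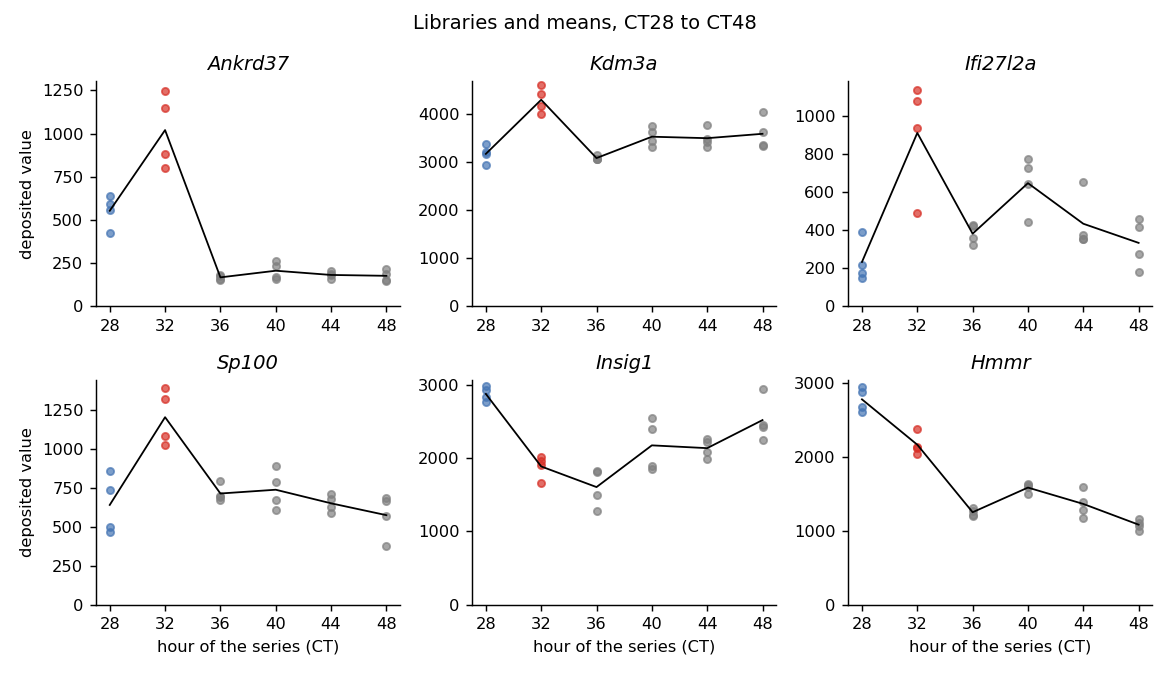
Deposited values of 6 genes by hour of the series, CT28 to CT48, with 4 libraries at each time point as points and their means joined by a line (CT28 blue, CT32 red). Ankrd37, Kdm3a, Ifi27l2a and Sp100 have their highest means at CT32, and Insig1 and Hmmr at CT28.

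The same hours of the day before, CT4 and CT8, belong to the other library series and share no library with CT28 and CT32. Each difference lies inside its own series, so the difference of the differences was tested over all 51 libraries. It passed for 30 of 14426 genes (0.208%). Taken with its sign, the 4 h difference was higher on embryonic day 19 in 24 (0.166%) and lower in 6 (0.0416%). At an unadjusted p under 0.05 there were 1261 genes (8.74%). Day and library series cannot be told apart in this comparison, and the spread differed: the median SD within a time point on the log2 scale was 0.0551 at CT4, 0.0783 at CT8, 0.107 at CT28 and 0.133 at CT32. Of the 17 genes, 6 also passed this test: Ankrd37, Adora2a, Pfkfb3, Kdm3a, Pgk1 and Has2. The tested quantity contains the CT32 minus CT28 difference by which the 17 were chosen. Their passing is therefore not independent of that choice.

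Ankrd37 was 339, 296, 283 and 319 at CT4 and 261, 277, 174 and 171 at CT8, lower in every CT8 library, which is the opposite direction to that at CT32 (day difference 1.39 ± 0.24, limma, adjusted p = 0.00261). Kdm3a was 3683, 3712, 3479 and 3588 at CT4 and 3417, 3451, 3047 and 2968 at CT8, also lower throughout (day difference 0.61 ± 0.0835, limma, adjusted p = 3.51e-05). For Adora2a the day difference was 0.88 ± 0.15 (limma, adjusted p = 0.00203), for Pfkfb3 0.77 ± 0.14 (limma, adjusted p = 0.00685) and for Pgk1 0.48 ± 0.10 (limma, adjusted p = 0.023). None of these 5 passed the test of CT8 against CT4 itself, in which 232 genes did (1.62%), 85 of them higher at CT8 (0.593%) and 147 lower (1.03%). Has2 overlapped on the day before, at 601, 693, 585 and 601 and then 650, 615, 558 and 679 (day difference -0.58 ± 0.13, limma, adjusted p = 0.0373). In the hypoxia and glycolysis list 4 of 24 had a larger difference on day 19 (Kdm3a, Ankrd37, Pgk1 and Tpi1), and the median difference was 0.369 on day 19 and -0.148 on day 18.

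Ifi27l2a behaved otherwise. It was at most 307 at CT4 and 639, 705, 401 and 336 at CT8, higher on that day too (1.27, limma, adjusted p = 0.0593), and the day difference was 0.73 ± 0.48 (limma, adjusted p = 0.725). No interferon-stimulated gene passed the day test, and the list's median difference was 0.569 on day 19 and 0.0586 on day 18. Aqp3 was the only one of the 17 that passed at CT8 against CT4, and it was higher on both days (0.25 and 0.37). Among genes outside the 17, Arl4d, a small GTPase of the ARF family, was 293, 357, 308 and 316 at CT28 and 452, 565, 523 and 447 at CT32. At CT4 it was 440, 402, 482 and 479 and at CT8 356, 348, 352 and 315, so the groups separated in opposite directions (day difference 1.03 ± 0.21, limma, adjusted p = 0.0151). Acer2, an alkaline ceramidase, had a day difference of 0.86 ± 0.17 and Zkscan2, a zinc finger protein, of 0.82 ± 0.19. Arl4d, Acer2 and Zkscan2 all fell at CT8 against CT4 (-0.39, -0.42 and -0.38, limma, adjusted p = 0.0139, 0.0297 and 0.0087). None of them passed at CT32 against CT28 (0.64, 0.44 and 0.44, limma, adjusted p = 0.185, 0.206 and 0.373). Dgcr8, the RNA-binding partner of Drosha, was 2380, 2164, 2251 and 2140 at CT28 and 1725, 1685, 1924 and 1942 at CT32, and it was higher in every CT8 library than at CT4 (day difference -0.44 ± 0.0783, limma, adjusted p = 0.00261).

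**Figure D5:**
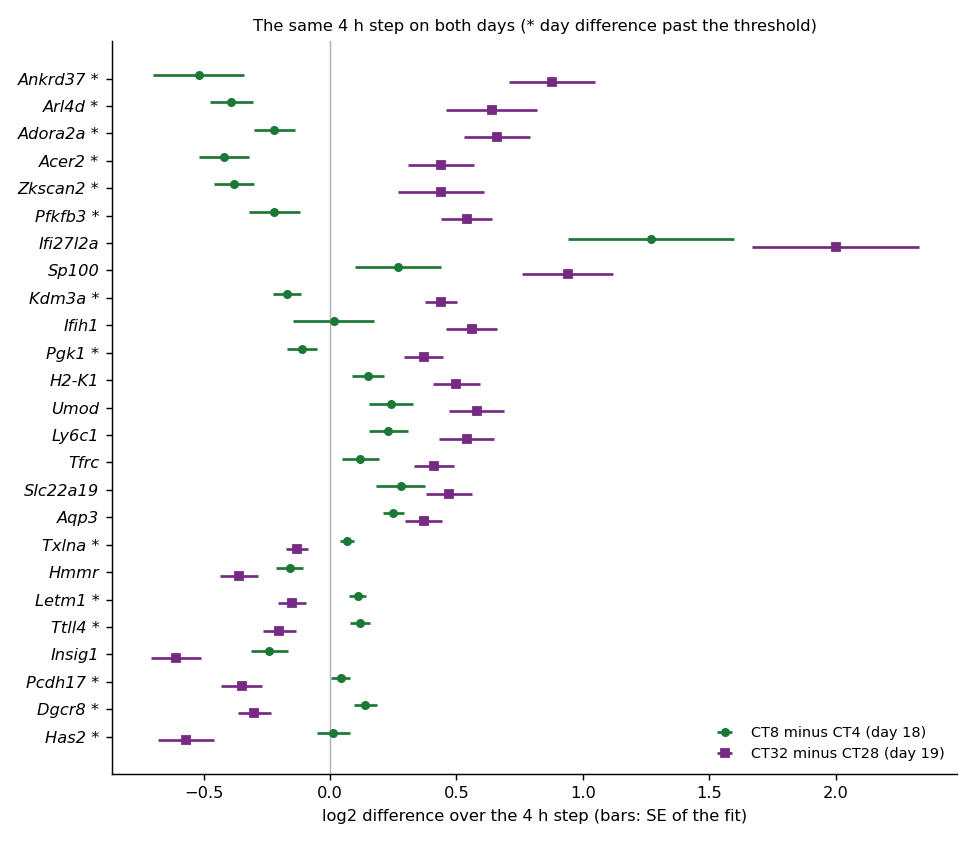
Rows are the 17 genes past the threshold and 8 further genes named for the day difference (those outside the 17 among the 6 largest past the threshold in each direction), with the log2 difference over the 4 h step on the x axis and bars of 1 SE. Circles are CT8 minus CT4 (day 18, the earlier library series), squares CT32 minus CT28 (day 19), and stars mark genes whose day difference passed the threshold. For Ankrd37, Kdm3a, Pfkfb3, Adora2a and Pgk1 the circle lies below 0 and the square above it.

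Apart from Kdm3a, each of the 17 lost its call without at least 1 of the 8 libraries. The number of calls was 1 without CT28 replicate 1 or 4 or CT32 replicate 1, 3 without CT28 replicate 2 or CT32 replicate 2, 4 without CT32 replicate 3, 44 without CT28 replicate 3 and 47 without CT32 replicate 4. With the 8 libraries alone 40 genes passed, 12 of them among the 17, and Ifi27l2a, Pfkfb3, Pgk1, Sp100 and Umod did not.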

How the data were processed

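RNA of fetal mouse kidney was measured in 51 libraries, of which 8 are compared here. Per the labels' protocols, poly-A RNA was made into TruSeq libraries and run on HiSeq sequencers. Bcl2fastq, STAR 2.5.2b and featureCounts 1.5.0-p3 were used with mm10, per the submitters' processing notes. How the values were normalised, the annotation and any use of strand are stated in none of the sources used here.

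The table the authors deposited is treated as a score: values normalised and then rounded to whole numbers, as read from its totals (35225077 to 35711911 in the 8 libraries) and upper quartiles (2397.5 to 2425.5). Depth is therefore unknown, and only the spread of the libraries shows the precision. A second table, of the authors' rhythm statistics, was not used.

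Values were analysed as log2(value + 1) in limma 3.58.1 (R 4.3.3), with a mean-variance trend, robust moderation and Benjamini-Hochberg adjustment over all genes tested. This scale understates changes of low genes. CT32 against CT28 was fitted on the 24 libraries of CT28 to CT48 (genes with a mean of at least 10, 14542 of 16099), the day difference on all 51 (14426 genes) and CT8 against CT4 on the 27 earlier libraries. On simulated data with 200 changed genes, the fit of CT32 against CT28 recovered 72% of changes of 0.5 and 89% of changes of 1, with 5.85% unchanged genes among the calls. The day difference recovered 71% and 84%, with 9.36%. In the deposited data the 17 calls of CT32 against CT28 became 1 without CT28 replicate 1 and 47 without CT32 replicate 4. Whether the percentages from simulation hold for the deposited data was not tested.

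The comparison and the 31 gene lists were chosen with earlier results of these data known. Named genes are the 12 largest rises and falls past the threshold without overlap and with a mean over the 8 libraries of 2 in 1e6 of the total or more, up to 4 called members of each list or the member with the smallest p, and the 6 largest day differences in each direction. These ranks leave out predicted models, pseudogenes and sex-linked genes. Other members given with values (such as Gbp6, Hmgcs1, Aqp2, Pck1 and the members named for 1 left-out library), and the hypoxia and interferon motifs, were chosen after their values were seen. Of 16099 symbols, 15979 were found in GENCODE M21. Promoters are from RefSeq (GRCm38.p6). Some members of the lists are not reported here.

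Alternatives were other pseudocounts (0.1 and 10), no filter or a mean of at least 100, no trend, quantile and median scaling, a replicate block, other sets of libraries and each library left out. Leaving out CT36 replicate 4, CT40, or CT40 to CT48 was added after seeing the data.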

Additional observations from a re-analysis of the deposited data

Results flagged for a closer look

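In 100 groups of 4 libraries checked for a single library far from the rest (the 50 named genes at CT28 and CT32), 7 had one by Dixon's criterion, in which the gap to the nearest library is set against the range of the group. Chance gives about 1 in 20 such groups. At CT32, Ifih1 was 730 in replicate 2 and 896 to 909 in the others, a gap of 0.927 of the range. Ntn1, a secreted guidance cue, was 2862 in replicate 1 and 3416 to 3463 in the others (0.922). At CT28, Lfng was 1650 in replicate 3 and 1943 to 1959 in the others (0.948), and Tyrobp was 323 in replicate 2 and 256 to 266 in the others (0.851). Zkscan2 was 303 in replicate 4 and 161 to 178 in the others (0.88), and Letm1 was 2404 in replicate 1 and 2518 to 2540 in the others (0.838). Cyp11a1, the enzyme that starts steroid synthesis, was highest in CT28 replicate 3, with a gap of 0.86 of the range to the others at 15 to 30. That is the library with the other adrenal transcripts.

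The 4 h step, taken with its sign, differed between the days, by the test of the difference itself, in 14 of the genes named. Among them are the genes named for that difference. It was higher on embryonic day 19 for Ankrd37 (1.39), Arl4d (1.03), Adora2a (0.88), Acer2 (0.86), Zkscan2 (0.82), Pfkfb3 (0.77), Kdm3a (0.61) and Pgk1 (0.48), on the log2 scale. Of these, Arl4d, Acer2 and Zkscan2 passed on day 18, as falls, and did not pass on day 19. The step was lower on day 19 for Has2 (-0.58), Dgcr8 (-0.44), Pcdh17 (-0.39), Ttll4 (-0.33), Letm1 (-0.26) and Txlna (-0.20). In each of these lower ones the estimated step was below 0 on day 19 and above 0 on day 18, so lower does not mean smaller in size. None of them passed at CT8 against CT4 (limma, adjusted p from 0.0914 for Letm1 to 0.962 for Has2). Only Has2 passed at CT32 against CT28, so a reversal is not shown for any single one. The days belong to different library series, and the 2 cannot be told apart.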

How the results depend on the processing

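The direction of each of the 17 genes held under all 22 alternatives of CT32 against CT28. Of 374 values, 252 kept their side of the threshold and the rest lost the call. The count of 17 became 2 without the trend and robust moderation (Kdm3a and Ifi27l2a), 40 with the 8 libraries alone and 441 with all 51, where the earlier series, with a median SD of 0.0752 against 0.137 in the second, enters the spread. It ranged from 1 to 47 when 1 library was left out. In the other alternatives apart from the replicate block, including CT36 replicates, CT40 or CT40 to CT48 left out, it was 16 to 22. The medians ran from 0.498 to 0.697 for the interferon-stimulated list, from 0.272 to 0.44 for hypoxia and glycolysis, from -0.201 to -0.108 for mitosis, from 0.186 to 0.314 for the proximal tubule, from 0.119 to 0.201 for fatty acid oxidation and from -0.112 to -0.0566 for cholesterol and fatty acid synthesis. Of the 31 lists, 10 had a median that changed sign when 1 library was left out (cold-inducible, unfolded protein, early nephron, DNA replication, oxidative phosphorylation, ribosomal, adrenal, skeletal muscle, erythroid, and neuronal and glial), so their directions are not stable. With these, 25 had a median that moved by over 1.5 times, among them mitosis (-0.108 without CT32 replicate 2). The 30 genes of the day difference ranged from 11 (without CT4 replicate 4 or CT8 replicate 4) to 87 (without CT32 replicate 4), with 52 without CT28 replicate 3. Except where a value is given, the cause of these changes was not tested.

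With the replicate block 54 genes passed for CT32 against CT28 and 17 for the day difference. The block was fitted on the libraries of the compared time points alone, not on the larger sets of the main fits. The 54 is therefore to be set against the 40 genes that passed with only CT28 and CT32 and no block. For the day difference no count without the block on the same libraries is given, so the part of the block in that change cannot be told. Same-numbered libraries of CT28 and CT32 did not deviate together (correlations of 0.00628, -0.0618, -0.0589 and -0.0392), and no library correlated best with its own number, so the numbers do not show a pairing.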
